A study of Homo sapiens with 64 samples.

Results

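Mcm5 was mapped on chromatin by ChIP-seq in U2OS, an established human osteosarcoma line, and the 4 lists of Mcm5 peaks are described here. The lists were chosen by antibody and cell line alone, and they held 368 of the 2442 peaks in the 24 lists of the series. Cells were either asynchronous (labelled non-synchronous) or arrested by a double thymidine block and released for 3, 7 or 9 h, and the groups compared here carry no transgene or knockdown. Chromatin was cut with micrococcal nuclease, and γ-tubulin, PCNA and FoxM1 were precipitated from the same line at the same times, while a line with an shRNA against TUBG had no Mcm5 list. The labels name 2 samples in each Mcm5 group, 8 of the 64 samples in all, but give a single list for both. No Mcm5 value therefore has a replicate error, no difference between times was tested, and reads per library were not analysed here. Intervals in brackets are exact 95% Clopper-Pearson intervals for counting error only, and they are too narrow where neighboring peaks are not independent.

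Mcm5 is a subunit of the Mcm2-7 ring, the helicase that unwinds DNA ahead of the replication fork. The ring is loaded onto DNA as cells leave mitosis and in G1, which licenses an origin, and it is displaced from chromatin as replication proceeds. More rings are loaded than are used, so that most licensed sites stay dormant in a given S phase. PCNA, the sliding clamp, is loaded only where synthesis has begun, γ-tubulin is the nucleator of microtubules that also occurs in the nucleus, and FoxM1 is a transcription factor of genes needed for G2 and mitosis. The comparison of the 4 times asks which stretches of DNA were recovered with Mcm5 as cells moved on from the block.

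The Mcm5 list of 7 h was the shortest of the 4 and also differed in content. It had 29 peaks, where the lists of asynchronous cells, 3 h and 9 h had 98, 132 and 109. Peaks were sorted into 4 kinds by their hg19 position, namely the mitochondrial genome, scaffolds not placed on a chromosome, pericentromeres (within 5 Mb of a centromere gap) and the remaining arms. In asynchronous cells 41 of 98 peaks were pericentromeric (41.8% [31.9 to 52.2]), at 3 h 52 of 132 (39.4% [31.0 to 48.3]) and at 9 h 58 of 109 (53.2% [43.4 to 62.8]). At 7 h none of the 29 peaks was pericentromeric. Scaffolds took 21 asynchronous peaks, 32 at 3 h and 27 at 9 h, and again none at 7 h. The 7 h list thus consisted of 24 arm peaks (82.8% [64.2 to 94.2]) and 5 mitochondrial peaks. Arms held 28 asynchronous peaks, 44 at 3 h and 22 at 9 h. The number on arms at 7 h was thus below that of 3 h but within the range of the other times. What the 7 h list lacked altogether was pericentromeric and scaffold sequence.

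**Figure D1:**
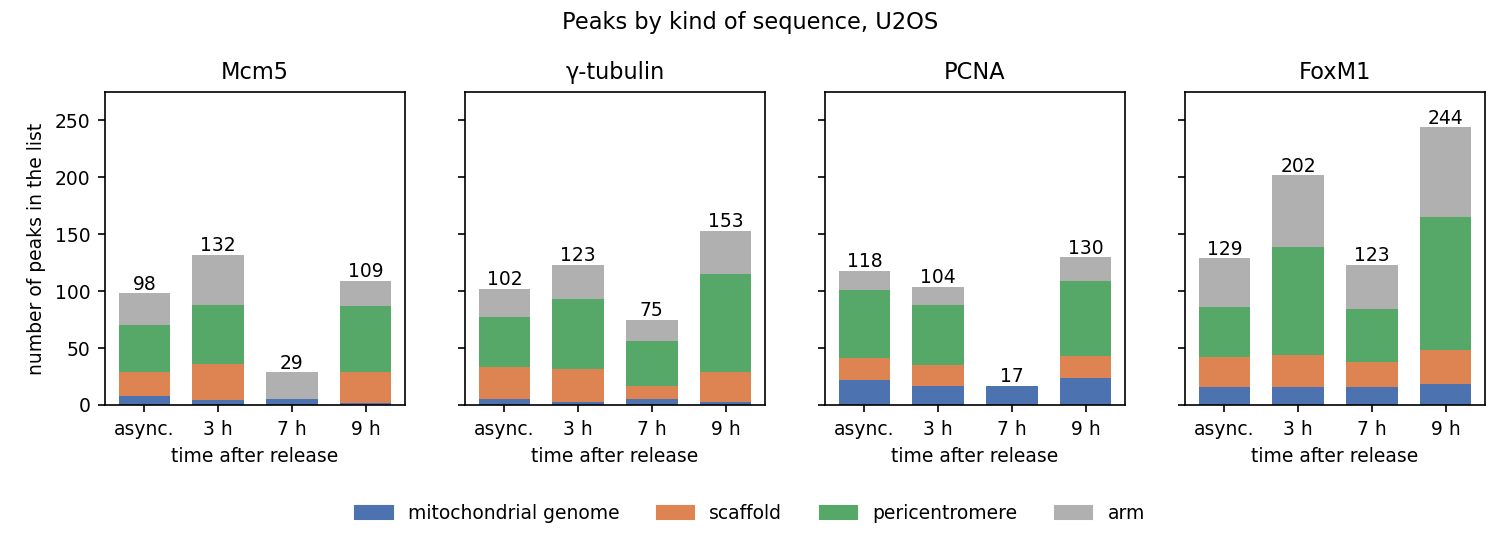
Number of peaks in each U2OS list (vertical axis) by time after release (horizontal axis; async., asynchronous), with 1 panel per antibody and colors for the kind of sequence. The Mcm5 bar at 7 h has only arm and mitochondrial peaks, while γ-tubulin and FoxM1 keep pericentromeric and scaffold peaks at 7 h and PCNA has mitochondrial peaks only.

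Every U2OS antibody had its shortest list at 7 h, but the complete loss of pericentromeric and scaffold peaks was not shared by all. Ordered as asynchronous, 3, 7 and 9 h, γ-tubulin lists held 102, 123, 75 and 153 peaks. Those of PCNA held 118, 104, 17 and 130, and those of FoxM1 129, 202, 123 and 244. At 7 h γ-tubulin had 39 pericentromeric and 12 scaffold peaks among 75, and FoxM1 had 46 and 22 among 123. Ordered likewise, scaffold peaks numbered 28, 29, 12 and 26 for γ-tubulin and 26, 28, 22 and 30 for FoxM1. Pericentromeric peaks numbered 44, 61, 39 and 86 for γ-tubulin and 44, 95, 46 and 117 for FoxM1. PCNA had 17 peaks at 7 h, all of them mitochondrial. Mcm5 and PCNA, with the shortest lists at 7 h (29 and 17 peaks), were thus the antibodies with no pericentromeric or scaffold peak then. How far the read depth of these lists contributed was not tested, since the lists hold no read numbers.

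Mcm5 peaks lay close together. When peaks within 100 kb of each other were joined over the 4 lists, 65 clusters resulted, and the 16 with at least 6 peaks contained 289 peaks (78.5%). The cluster with the most peaks was on the unplaced scaffold gl000226, with 15 asynchronous peaks, 17 at 3 h, 0 at 7 h and 17 at 9 h. On chromosome 10, between 42365161 and 42400746 beside the centromere, there were 16, 13, 0 and 12 peaks in the same order. Fewer peaks did not mean less DNA there, since they covered 8909 bp (asynchronous), 11246 bp (3 h) and 12605 bp (9 h). In that cluster γ-tubulin had 16 peaks and FoxM1 15 peaks at 7 h.

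A second chromosome 10 cluster, between 42527927 and 42600506, grew from 5 peaks in asynchronous cells to 7 at 3 h and 11 at 9 h, and a chromosome 2 cluster, between 92269006 and 92325264, went from 3 to 6 and 11. Neither had a peak at 7 h. The scaffold gl000220, which carries ribosomal DNA, held 6 asynchronous peaks, 13 at 3 h, 0 at 7 h and 7 at 9 h, and among the 16 clusters it alone had more peaks at 3 h than at each other time. A cluster on chromosome 16 between 46391319 and 46424953, counted as arm because it is more than 5 Mb from the centromere gap, followed the pericentromeric pattern with 2, 4, 0 and 5 peaks. Of the 16 clusters, 5 had any peak at 7 h. These were the mitochondrial genome and 4 arm clusters on chromosomes 1, 11, 17 and 19.

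**Figure D2:**
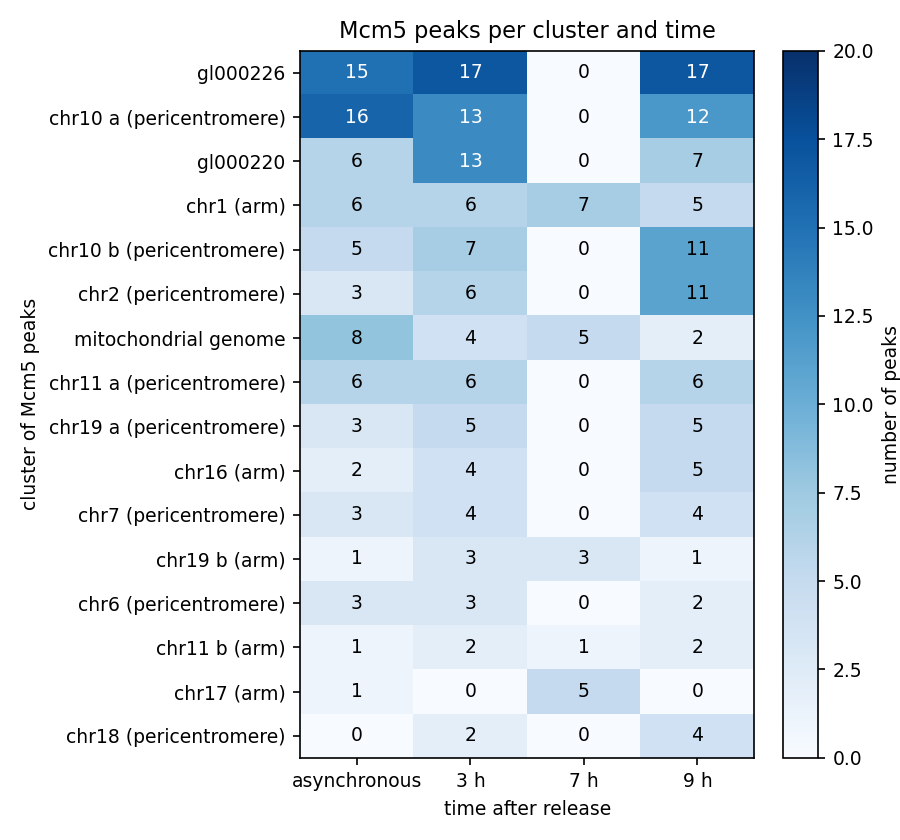
Number of Mcm5 peaks (number and shade in each cell) in the 16 clusters with at least 6 peaks (rows) at each time (columns); a and b tell apart clusters of the same chromosome. All pericentromeric and scaffold rows are 0 at 7 h, and the chromosome 17 row holds 5 of its 6 peaks at 7 h.

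Some of these peaks recurred with high precision. On chromosome 11, between 51579392 and 51591336, 6 peaks of 251 to 401 bp stood in a row at every time except 7 h. The first pair of midpoints was 3282 bp apart (asynchronous), 3292 bp apart (3 h) and 3322 bp apart (9 h), and all later neighbors were 2014 to 2140 bp apart. The same 6 positions were thus found in 3 separately called lists, at nearly regular distances, and none of them at 7 h. The row was not particular to Mcm5. Each position overlapped peaks in 9 to 14 lists of other antibodies by at least 1 bp, with 3 U2OS PCNA lists at each. Among these lists, 1 to 3 were of the line with the shRNA against TUBG. γ-Tubulin had 5 peaks and FoxM1 3 peaks in this stretch at 7 h.

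**Figure D3:**
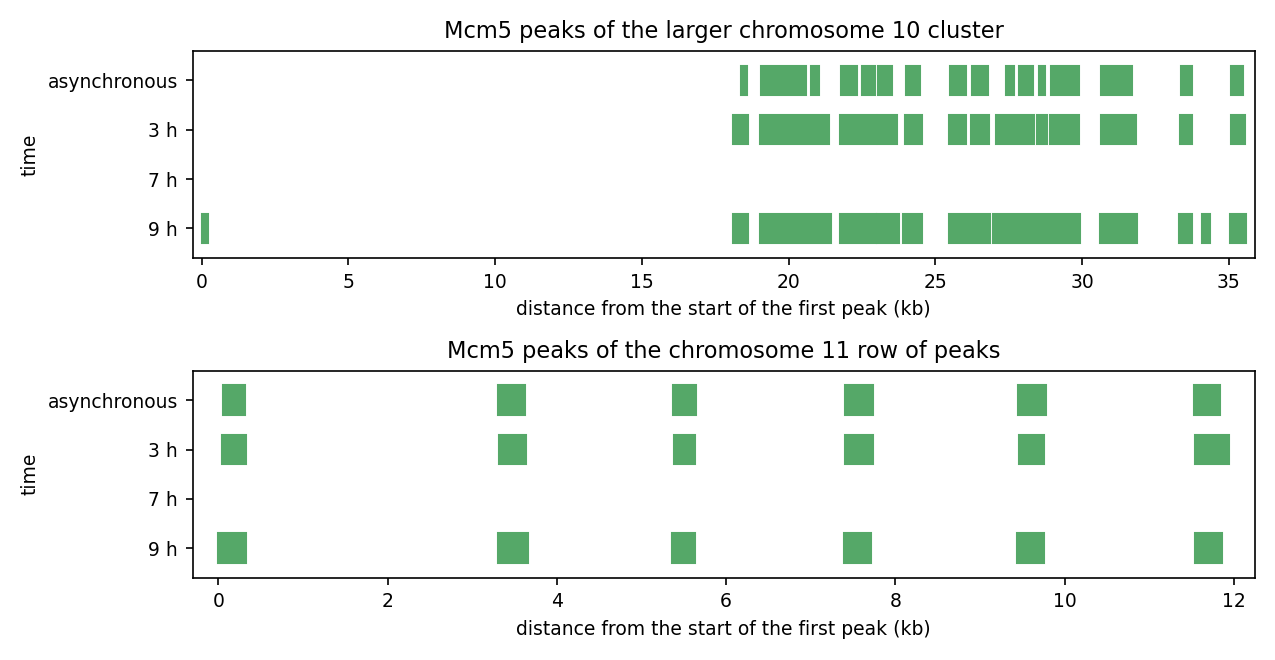
Mcm5 peaks (bars drawn to scale) by time in 2 pericentromeric clusters, against the distance in kb from the start of the first peak. On chromosome 10, neighboring peaks of asynchronous cells are joined into longer ones at 3 h and 9 h, and on chromosome 11 the same row of 6 peaks is seen at all times but 7 h.

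To follow peaks from time to time, a peak was counted as found in another list when a peak there shared at least 25% of both. This is the rule the study used to call overlap. Of the 98 peaks of asynchronous cells, 77 were found at 3 h (78.6% [69.1 to 86.2]), compared with 69.3% for the peaks of the other 3 antibodies in their own lists. At 9 h 69 of them were found (70.4% [60.3 to 79.2]), where the other antibodies together gave 66.8% and ranged from 41.9% (FoxM1) to 89.0% (PCNA). At 7 h 19 were found (19.4% [12.1 to 28.6]), against 48.4% for the others together. That pooled share joins antibodies that differed, since γ-tubulin gave 64.7% and FoxM1 67.4%, but PCNA 13.6%, with 0 of its 96 nuclear peaks. Mcm5 at 7 h thus lay below γ-tubulin and FoxM1 and near PCNA.

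From 3 h to 7 h, 16 of 132 Mcm5 peaks were found again (12.1% [7.09 to 18.9]), against 35.4% for the other antibodies together. Of these, γ-tubulin gave 47.2% and FoxM1 38.6%, while PCNA gave 15.4%, with 0 of its 87 nuclear peaks. From 7 h to 9 h it was 12 of 29 Mcm5 peaks (41.4% [23.5 to 61.1]), against 61.9% together, with FoxM1 at 48.8%, γ-tubulin at 76.0% and PCNA, whose peaks were all mitochondrial, at 94.1%. Across the gap, from 3 h to 9 h, 83 of 132 were found (62.9% [54.0 to 71.1]), where the other antibodies gave 85.8% together and 83.7% to 89.4% singly. The peaks of 9 h were thus more often shared with 3 h (79 of 109, 72.5% [63.1 to 80.6]) than with 7 h (11 of 109, 10.1%). Without the mitochondrial genome, which every list contained, 12 of 128 peaks went from 3 h to 7 h (9.38%) and 81 of 128 from 3 h to 9 h (63.3%).

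How many positions were found again differed by kind of sequence. From asynchronous cells to 3 h, 37 of 41 pericentromeric, 17 of 21 scaffold and 18 of 28 arm peaks were found again. From 3 h to 9 h the numbers were 43 of 52 pericentromeric, 20 of 32 scaffold and 18 of 44 arm peaks. Among nuclear kinds the share on arms was the lowest in both steps, and of the mitochondrial peaks of asynchronous cells 5 of 8 were found at 3 h. This order was not a feature of Mcm5 alone. On arms γ-tubulin, PCNA and FoxM1 had 17 of 25, 10 of 17 and 22 of 43 asynchronous peaks found at 3 h. From 3 h to 9 h they had 24 of 30, 11 of 16 and 44 of 63. Arms were lowest for each, nearly level for FoxM1 in the first step, except γ-tubulin from 3 h to 9 h (scaffolds, 21 of 29). Measured in bases, the nuclear peaks of asynchronous cells and 3 h shared 52.9% of their joint length, those of 3 h and 9 h 59.9%, and those of 3 h and 7 h 5.14%.

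Gains and losses were counted over 171 regions, formed by merging Mcm5 peaks of the 4 lists wherever they touched by 1 bp or more. The asynchronous list called 80 of them, that of 3 h 121, that of 7 h 24 and that of 9 h 107. From asynchronous cells to 3 h, 66 regions were kept, 14 lost and 55 gained. From 3 h to 7 h 11 were kept, 110 lost and 13 gained, and from 7 h to 9 h 9 were kept, 15 lost and 98 gained. Set directly against 3 h, the 9 h list kept 78 regions, lost 43 and gained 29. All 79 pericentromeric and scaffold regions of 3 h (47 and 32) were among the 110 lost at 7 h, and 62 of the 79 were called again at 9 h (42 and 20). The arms changed as well, with 10 regions of 3 h kept at 7 h, 31 lost and 13 gained.

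The 54 regions called at every time except 7 h were the most frequent combination, with 32 pericentromeric, 16 scaffold and 6 arm regions. A further 16 were called at 3 h and 9 h only. All 4 times shared 8 regions, the mitochondrial genome and 7 arm regions. At the other extreme, 83 regions (48.5%) were called at a single time, 38 of them at 3 h, 26 at 9 h, 10 at 7 h and 9 in asynchronous cells. Those of 3 h were mostly on arms and those of 9 h mostly in pericentromeres. By the 25% rule the peaks in no other Mcm5 list numbered 40 at 3 h (30.3% [22.6 to 38.9]; 22 arm, 11 scaffold, 7 pericentromere) and 27 at 9 h (24.8% [17 to 34.0]; 4 arm, 6 scaffold, 17 pericentromere). They numbered 14 in asynchronous cells (14.3% [8.04 to 22.8]) and 10 at 7 h (34.5% [17.9 to 54.3]), the latter all on arms. Neither these shares nor the regions of a single time were counted for the other antibodies. Whether they are particular to Mcm5 is therefore not known.

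**Figure D4:**
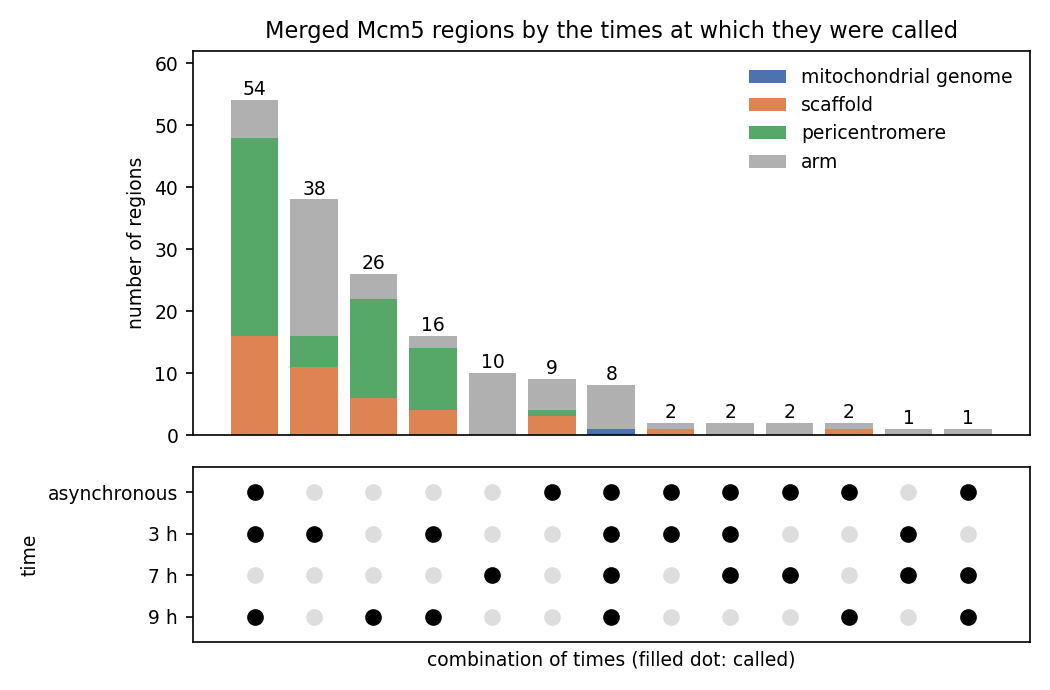
Number of merged Mcm5 regions (bars, colored by kind of sequence) for each combination of times at which they were called (filled dots below each bar). The highest bar, 54 regions, lacks 7 h alone, and the 10 regions called at 7 h alone are all on arms.

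The 5 regions outside the mitochondrial genome with the highest mean score rank among those called at all times were on chromosomes 1, 11 and 19. The score is the whole number each deposited peak carries. Its rank is the percent of peaks of the same list with a lower score, where equal scores count in part. The first was at 566079 to 566751 on chromosome 1, with scores of 353 (asynchronous), 217 (3 h), 118 (7 h) and 226 (9 h) and a mean rank of 79.8. It was the highest scoring nuclear peak of asynchronous cells. A pair of others lay in the same cluster, at 564878 to 565360 (scores of 60, 81, 175 and 189) and 569115 to 569697 (95, 96, 158 and 142). That stretch, from 564878 to 570118 on chromosome 1, is known as a nuclear copy of mitochondrial DNA, and it held 6, 6, 7 and 5 Mcm5 peaks over the 4 times. The remaining regions were at 10530751 to 10531252 on chromosome 11, with scores of 134, 89, 136 and 141, and at 55813993 to 55814326 on chromosome 19, with 106, 81, 158 and 74. Whether reads of mitochondrial origin contributed to the chromosome 1 peaks was not tested.

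On the mitochondrial genome itself there were 8 asynchronous peaks, 4 at 3 h, 5 at 7 h and 2 at 9 h, yet the DNA covered was alike, at 15219, 16280, 16150 and 16376 bp. The peaks were joined into longer ones, the widest in each list being 4041, 6063, 6178 and 10323 bp in the same order. Mitochondrial DNA made up 66.7% of the bases covered at 7 h, and 28.3%, 22.6% and 22.8% of those of the asynchronous, 3 h and 9 h lists. The nuclear DNA covered was 38617 bp for asynchronous cells, 55895 bp for 3 h, 8074 bp for 7 h and 55394 bp for 9 h. The nuclear peaks called at 3 h and 9 h, 128 and 107 of them, thus had a similar total length.

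The typical width of a peak changed little with time. The median was 364 bp for asynchronous cells, 324 bp for 3 h and 361 bp for both 7 h and 9 h, and no peak was under 200 bp. The ends of the distribution differed more. Peaks of at most 210 bp numbered 7, 25, 4 and 11 over the 4 times, and nuclear peaks over 1000 bp numbered 5, 11, 0 and 11. The widest nuclear peak had 1559 bp (asynchronous), 2350 bp (3 h), 533 bp (7 h) and 2964 bp (9 h).

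Where a nuclear peak could be paired with 1 peak of another list, its edges could be compared. In 70 pairs between asynchronous cells and 3 h the starts differed by a median of 25 bp and the ends by 26 bp, and the peak was wider at 3 h in 49 and narrower in 20. In 63 pairs between asynchronous cells and 9 h it was wider at 9 h in 50 and narrower in 11, by a median of 81 bp. In 73 pairs between 3 h and 9 h it was wider at 9 h in 58 and narrower in 15, by a median of 34 bp. The same positions were thus more often broadest at 9 h of these times. Over these pairs Spearman's rho of the score ranks was 0.665, 0.746 and 0.819 in the order given. For the nuclear pairs of 7 h, rho was 0.173 with the asynchronous list (13 pairs), 0.223 with 3 h (10 pairs) and -0.0669 with 9 h (9 pairs). These are descriptions over peaks that share clusters and libraries.

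Among nuclear peaks, those in pericentromeres ranked highest at the times that had any. Their median score rank was 69.9 for the asynchronous list, 69.7 for 3 h and 61.0 for 9 h. Arm peaks had 29.3, 43.9 and 45.0 and scaffold peaks 32.1, 28.4 and 45.4 in the same order. The few mitochondrial peaks ranked above all of these, with medians of 80.9, 85.6 and 88.1. Of the 10 highest peaks, 7 were pericentromeric in the asynchronous list and 9 in each of the 3 h and 9 h lists. The highest nuclear peak of 3 h and that of 9 h were at the same place beside the centromere of chromosome 1, at 121484048 to 121485454 with a score of 421 and at 121484046 to 121485465 with a score of 525. The asynchronous peak there, at 121484062 to 121485440, scored 300. At 7 h there was no peak at this place, and the 10 highest peaks were 4 mitochondrial and 6 arm peaks.

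The highest nuclear peak of 7 h was at 236260370 to 236260676 on chromosome 1 with a score of 211. The same region was called at every time, with a score of 59 in asynchronous cells and 60 at both 3 h and 9 h. Scores are not known to be on the same scale in different lists, so only its place within each list can be read, and that was highest among nuclear peaks at 7 h alone.

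Regions called at 3 times had wider and higher ranked peaks than regions called at a single time. The rule itself favors this order, since wider peaks join more easily at 1 bp of overlap and higher scoring peaks are more easily called again. The values are therefore descriptions only. Peaks of regions called at a single time had a median width of 228 bp [221 to 253] and a median rank of 25.9 [19.7 to 33.9], with 28 of 83 at most 210 bp wide. Peaks of regions called at 3 times had a median width of 447 bp [391 to 488] and a median rank of 61.7 [55.7 to 67.9], with 6 of 187 at most 210 bp wide. For the nuclear regions of all 4 times the medians were 339 bp and 52.8, below those of 3 times. Regions of 2 times, with a median width of 266 bp and rank of 29.5 [18.8 to 42.7], were near those of a single time. Here the brackets are order-statistic intervals of the median at 95%. Width and score also went together within a list, with rho over nuclear peaks of 0.487, 0.577, 0.301 and 0.649 at the 4 times (n = 90, 128, 24 and 107).

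Narrow, isolated peaks were mainly found at 3 h. Of 31 clusters that consisted of a single peak, 23 were of the 3 h list and 4, 2 and 2 of the asynchronous, 7 h and 9 h lists. The median width of the 23 was 209 bp, and 13 were at most 210 bp wide, so that many were near the lowest width in the lists. Of the 171 regions, 16 overlapped no peak of another antibody by even a single base, and they belonged to 3 h (8), 7 h (6) and asynchronous cells (4), with regions of 2 times counted under both. The highest ranked of those in no other list at all were at 175672031 to 175672371 on chromosome 2 (score of 135) and at 105533531 to 105533851 on chromosome 6 (121), both at 3 h. The next were at 3 h on scaffold gl000212 (40577 to 40785, score of 81), in asynchronous cells on chromosome 19 (15691999 to 15692213, score of 71) and at 7 h on the same chromosome (55800850 to 55801053, score of 96).

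Mcm5 peaks at chromosome ends were mostly found at 3 h. Within 20 kb of an end there were 7 Mcm5 peaks at 7 ends at 3 h. Asynchronous cells had 2 at a single end, and the 9 h and 7 h lists had 1 and 0. Those of 3 h were at 10048 to 10306 (score of 178) and 249240398 to 249240602 (92) on chromosome 1, at 133841470 to 133841925 (272) on chromosome 12 and at 10027 to 11828 (243) on chromosome 5. The others were at 10046 to 10254 (185) on chromosome 7, at 155259979 to 155260387 (180) on chromosome X and at 59362963 to 59363399 (259) on chromosome Y. The last bases of X and Y are the same sequence in hg19, so reads from them cannot be told apart. Their peaks are counted as separate ends here but need not be. The nearer edges lay 9971 to 10174 bp from the end of the assembled sequence, the outermost 10 kb of which is unsequenced at most ends and stands for the telomere.

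The end of chromosome 5 was the end that recurred, with peaks at 10385 to 10590 (score of 32) and 10932 to 11395 (28) in asynchronous cells and at 10164 to 11784 (82) at 9 h. FoxM1 had 4, 7, 4 and 6 end peaks over the 4 times, γ-tubulin 2, 3, 2 and 3, and PCNA 1, 1, 0 and 1. The 3 h end regions on chromosomes 12, Y and 7 were also the 3 highest ranked arm regions called for Mcm5 at 3 h alone. In asynchronous cells the corresponding regions were at 3675610 to 3675903 on chromosome 11 (score of 73), 15691999 to 15692213 on chromosome 19 (71) and 236877200 to 236877427 on chromosome 1 (55). At 9 h the first 2 were at 46406655 to 46406984 on chromosome 16 (56) and 10531343 to 10531543 on chromosome 11 (46), the latter beside the region that was called at all times.

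The other proteins were then placed at Mcm5 peaks of the same time, by the 25% rule. With γ-tubulin, the share was 85.7% (asynchronous), 68.2% (3 h), 51.7% (7 h) and 89.9% (9 h). Of PCNA and FoxM1 peaks of the same times, 51.8%, 51.3%, 43.6% and 53.5% overlapped γ-tubulin. With PCNA the share of Mcm5 peaks was 61.2%, 54.5%, 3.45% and 77.1%, beside 58.9%, 47.4%, 7.58% and 48.1% of γ-tubulin and FoxM1 peaks. At 7 h the PCNA list was mitochondrial only, so no nuclear peak of any antibody could overlap it. With FoxM1 the share of Mcm5 peaks was 68.4%, 55.3%, 24.1% and 56.9%, beside 63.6%, 74.9%, 76.1% and 74.6% of γ-tubulin and PCNA peaks. Mcm5 thus had more γ-tubulin than the other antibodies' peaks at every time but 7 h, where the background lay within its interval [32.5 to 70.6], and less FoxM1 at 3, 7 and 9 h, without a test. Mcm5 peaks without any of the 3 proteins made up 7.14%, 23.5%, 37.9% and 7.34%. The lists of a time share their input samples, so these shares are not independent of each other.

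The other proteins were found at more of the peaks in regions called at 3 times than in regions of a single time. These regions also differed in kind of sequence. Of 57 regions of 3 times, 32 were pericentromeric, 16 on scaffolds and 9 on arms, and of 83 of a single time 22, 20 and 41. No share by recurrence was computed within a kind or for peaks of the other antibodies, so recurrence and kind cannot be told apart here. Among peaks of regions called at a single time, γ-tubulin was found at 36.1% [25.9 to 47.4], PCNA at 24.1% [15.4 to 34.7] and FoxM1 at 37.3% [27.0 to 48.7]. In regions called at 3 times the shares were 94.1% [89.7 to 97.0], 82.9% [76.7 to 88.0] and 68.4% [61.3 to 75.0]. All 3 proteins were found at 14 of 83 peaks of a single time (16.9%) and at 115 of 187 peaks of 3 times (61.5%), and none of them at 49.4% and 3.21%. For single-time peaks the γ-tubulin and PCNA shares depended on the time points used, and without the 9 h list they were 17.5% and 3.51% (FoxM1, 24.6%), while without the 3 h list they were 57.8% and 42.2%. The regions called at all 4 times, mitochondrial or on arms, had γ-tubulin at 86.5% [74.2 to 94.4] and PCNA at 25% [14.0 to 38.9]. This PCNA share depended on the settings, at 44.2% with overlap by 1 bp, 7.69% with 50% of both peaks, 15.2% without mitochondrial peaks and 13.9% without the asynchronous list. It includes nuclear Mcm5 peaks of 7 h, which could not overlap PCNA, and was 30.8% without the 7 h list.

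At positions that kept Mcm5, PCNA was mostly called at the same times. Of 61 nuclear regions with Mcm5 at the 3 times other than 7 h, whether or not at 7 h, 47 had a PCNA peak at all 3 of these times, 6 at none and 8 at some. Of the 61, 48 were pericentromeric or scaffold regions. Of all asynchronous PCNA peaks, 57 of 60 pericentromeric, 18 of 19 scaffold and 11 of 17 arm peaks were found at 9 h. The same count was not made for regions of γ-tubulin or FoxM1, so it is not known to be particular to Mcm5. By kind of sequence, with 7 h left out because PCNA had no nuclear peak then, PCNA was found at 130 of 151 pericentromeric Mcm5 peaks (86.1% [79.5 to 91.2]), at 49 of 80 scaffold peaks (61.2% [49.7 to 71.9]) and at 30 of 94 arm peaks (31.9% [22.7 to 42.3]). Of γ-tubulin and FoxM1 peaks of these kinds, 60.4%, 52.1% and 27.7% had PCNA, so that the fall from pericentromeres to arms was not a feature of Mcm5 alone. γ-Tubulin was found at 92.1% [86.5 to 95.8], 78.8% [68.2 to 87.1] and 62.8% [52.2 to 72.5] of Mcm5 peaks, beside 68.3%, 64.3% and 36.8% of PCNA and FoxM1 peaks. FoxM1 was found at 76.8% [69.3 to 83.3], 36.2% [25.8 to 47.8] and 48.9% [38.5 to 59.5], beside 80.0%, 56.1% and 62.6% of γ-tubulin and PCNA peaks. With the 7 h peaks included, the shares of arm peaks were 25.4% for PCNA, 59.3% for γ-tubulin and 41.5% for FoxM1. PCNA was unevenly spread over the arm regions. By at least 1 bp, those with PCNA in 3 lists lay on chromosomes 3, 5, 9 and 16. Most other arm regions had PCNA in no list.

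Every peak of the short 7 h list can be placed. The 5 mitochondrial peaks, with scores of 117 to 300, were all found in asynchronous cells and at 3 h, and 3 of them at 9 h. γ-Tubulin was at 4 of them at 7 h, FoxM1 at 4 and PCNA at 1 by the 25% rule. All 5 overlapped a 7 h peak of each of these proteins by at least 1 bp, but the mitochondrial Mcm5 peaks were 1527 to 6178 bp wide and the PCNA peaks had a median of 367 bp. None of the 24 arm peaks overlapped PCNA at 7 h, which had no nuclear peak. The 7 peaks of the chromosome 1 copy of mitochondrial DNA had scores of 63 to 175. Of these, 6 were found in the asynchronous list, 6 at 3 h and 5 at 9 h, and γ-tubulin was at 6 at 7 h. Both groups were thus mostly shared with the other times and with γ-tubulin.

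A group of 5 peaks lay on chromosome 17, at 40762298 to 40762557 (score of 55), 40765876 to 40766085 (71), 40766223 to 40766695 (133), 40766756 to 40767019 (125) and 40818047 to 40818552 (48). In hg19 this is where TUBG1 and TUBG2 lie, the genes of γ-tubulin itself. The genes are placed from general knowledge of the map, as no hg19 annotation was used here. Whether the peaks fall on exons was not tested, the reads behind them were not examined, and with a single list the calls have no replicate. Of the 5, 1 was found in asynchronous cells, where that peak scored 43, and none at 3 h or 9 h. The cluster thus held 5 of its 6 Mcm5 peaks at 7 h. Among the other U2OS lists the stretch held 1 peak each for γ-tubulin at 3 h (score of 44), γ-tubulin at 7 h (73) and FoxM1 in asynchronous cells (76). In the line with the shRNA against TUBG it held 3 γ-tubulin peaks in asynchronous cells, with a top score of 88, and 1 at 3 h, 0 at 7 h and 2 at 9 h, and 1 PCNA peak at 3 h.

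A further 3 peaks lay on chromosome 19, at 55795748 to 55796010 (score of 125), 55800850 to 55801053 (96) and 55814023 to 55814291 (158). By the same general knowledge this is BRSK1, which encodes a kinase also called SAD-B, and the same limits hold. The first was also found at 3 h, the second in no other list of the series and the third in all Mcm5 lists. Mcm5 had 1, 3, 3 and 1 peaks in this stretch over the 4 times, FoxM1 2, 1, 1 and 0, γ-tubulin 1, 0, 0 and 1 and PCNA 0 at each. In the line with the shRNA there were 2 asynchronous γ-tubulin peaks, 1 at 3 h, 0 at 7 h and 2 at 9 h, and 1 asynchronous PCNA peak.

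The remaining 9 peaks were scattered over arms, with scores of 61 to 211, and 5 of them were found in the asynchronous list and 3 each at 3 h and 9 h. They included the chromosome 1 peak with the highest nuclear score and the recurrent chromosome 11 region. A pair of neighbors on chromosome 7, at 43958538 to 43958847 (77) and 43959043 to 43959454 (110), was found in no other Mcm5 list. Over the whole 7 h list, 19 of 29 peaks were found in another Mcm5 list, 15 had γ-tubulin, 7 had FoxM1 and 1 had PCNA at 7 h, and 6 overlapped no other U2OS peak by a single base.

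**Figure D5:**
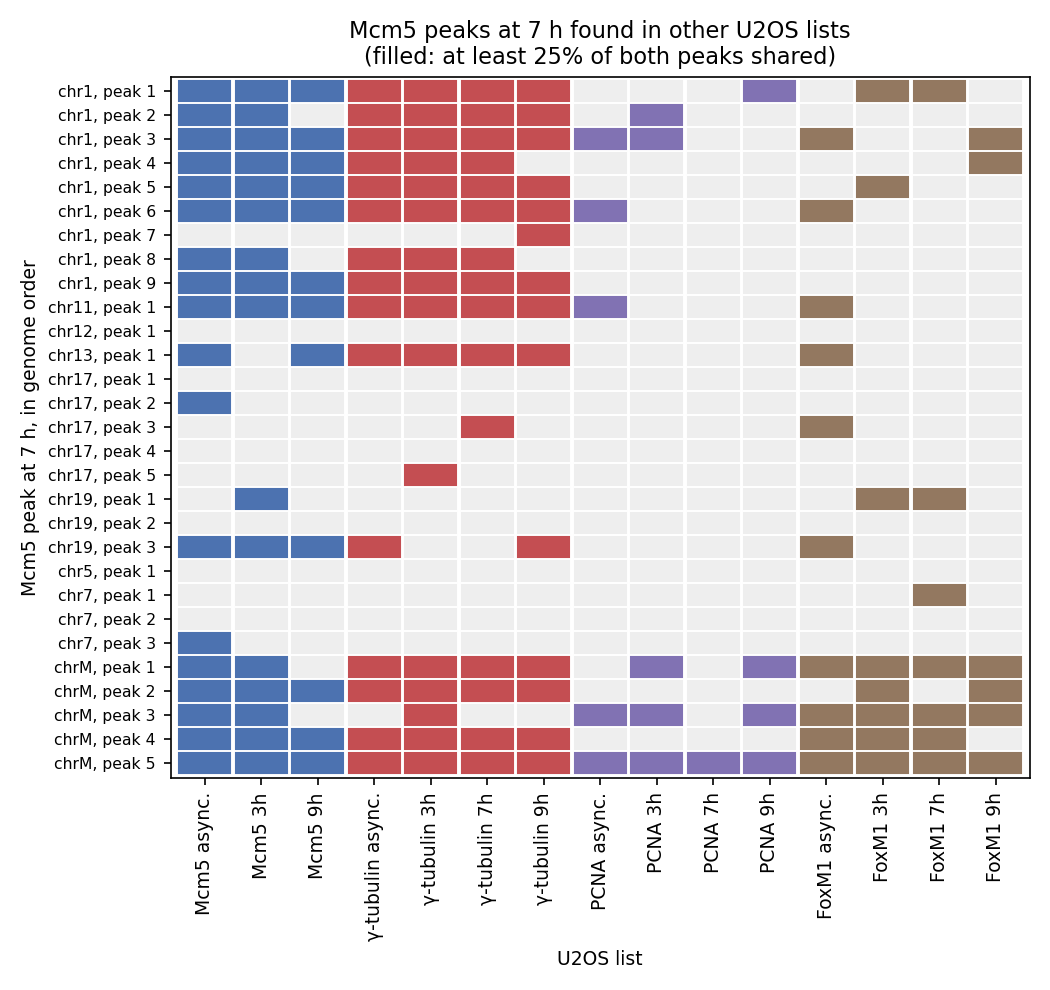
The 29 Mcm5 peaks of 7 h (rows, in genome order within a chromosome) and the other 15 U2OS lists (columns, colored by antibody), where a filled cell marks a peak sharing at least 25% of both. Most cells of the mitochondrial and chromosome 1 rows are filled in the Mcm5 and γ-tubulin columns, while the chromosome 17 rows are almost empty and the PCNA column of 7 h has a single filled cell.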

How the data were processed

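The authors deposited a list of peaks for each antibody, time and line, with hg19 positions and a whole-number score whose meaning is not given in the sources used here. The submitters' processing notes name Bowtie2 2.1.0, SAMtools 1.7-13 and MACS2. How both samples and their input were combined, how repeat and duplicate reads were treated and the read depth are not given either. Input samples were not analysed here.

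Positions were compared with Python 3.11.15, numpy 2.4.6 and scipy 1.17.1, and figures drawn with matplotlib 3.10.9. Overlap meant at least 25% of both peaks, regions were peaks merged at 1 bp of overlap, and clusters were peaks within 100 kb. The overlap and merging steps were tested on simulated peaks. Centromere gaps and chromosome lengths were the standard hg19 ones, entered by hand; 0 peaks fell inside a gap or past an end. For the background, peaks of the other U2OS antibodies were counted by the same rule, for the other proteins at each time separately. Scores were ranked only within a list. No test was made between times, because there is 1 list per time.

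The members and lists were chosen with earlier results of these data known. Named regions were the 5 highest ranked called at all times, all of the 7 h list by place, the highest scoring nuclear and the widest peak of each list, up to 3 arm regions called at 1 time for each list (1 of these, at 9 h, is not described) and the 5 highest ranked in no other list. The grouping of 7 h peaks by place, the minimum of 6 peaks per cluster, the chromosome ends within 20 kb, the width limits of 210 and 1000 bp, the chromosome 11 row, and the genes named were chosen after the data were seen. Alternatives were overlap by 1 bp or 50%, peaks at or above the median score, peaks or regions merged within 1000 bp, regions within 100 bp, pericentromeres within 2 or 10 Mb, no mitochondrial peaks, and each time left out. Leaving out 7 h for the arm peaks by protein was added after the data were seen.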

Additional observations from a re-analysis of the deposited data

How the results depend on the processing

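No paired analysis was possible because both samples of a group share 1 list, which also means that leaving out a replicate could not be tried. Of 279 alternative values of 61 results, 211 moved by less than their counting interval, or for counts by less than 1.5 times, and 68 moved by more. Pericentromeres within 2 or 10 Mb, regions merged within 100 bp and leaving out the 7 h list moved none of the results recomputed.

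With overlap by 1 bp, 84.7% of asynchronous peaks were found at 9 h. FoxM1 was then at 76.1% and 88.2% of Mcm5 peaks of regions called at 2 and 3 times, PCNA at 91.4% and 44.2% and γ-tubulin at 97.3% and 96.2% of those called at 3 and 4 times. With overlap by 50% of both, 53.8% of 3 h peaks were found at 9 h, 50.5% of 9 h peaks in asynchronous cells, and 66.3% and 56.1% of asynchronous peaks at 3 h and 9 h. γ-Tubulin was then at 63.0%, 82.9% and 71.2% of peaks of regions called at 2, 3 and 4 times, and at 3 and 4 times FoxM1 was at 52.9% and 26.9% and PCNA at 69.5% and 7.69%.

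Peaks at or above the median score numbered 50, 66, 15 and 55 in asynchronous cells, at 3, 7 and 9 h, fewer by construction, and formed 82 regions, 34 called at 1 time, 28 at 3 and 2 at 4. Their median widths were 476 bp in asynchronous cells, 456 bp at 3 h and 527 bp at 9 h. In asynchronous cells 68.0% were then pericentromeric, 2.0% on scaffolds and 16% on arms, and at 3 h 54.5% were pericentromeric and 12.1% on scaffolds. FoxM1 was at 50%, 90% and 76.4% of those of regions called at 1, 2 and 3 times, and at 3 times PCNA was at 90.2% and γ-tubulin at 97.6%.

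With peaks within 1000 bp merged there were 50, 79, 16 and 60 peaks over the 4 times and 109 regions, 13, 29 and 5 of them called at 2, 3 and 4 times. Of asynchronous peaks 68.0% were found at 3 h, of 3 h peaks 41.8% in asynchronous cells and 43.0% at 9 h, and of 9 h peaks 56.7% at 3 h. Arms then held 42.0% and 46.8% of asynchronous and 3 h peaks, scaffolds 12.0%, 15.2% and 16.7% of asynchronous, 3 h and 9 h peaks, and the mitochondrial genome 2.0% of asynchronous peaks. With regions merged within 1000 bp there were 104, of which 53, 29 and 5 were called at 1, 3 and 4 times. Without mitochondrial peaks FoxM1 was at 27.3% of peaks of regions called at 4 times. For regions called at 1 time, leaving out 3 h gave 57.8% for γ-tubulin and 42.2% for PCNA, and leaving out 9 h gave 17.5% and 3.51%, with FoxM1 at 24.6%. Leaving out asynchronous cells gave 13.9% for PCNA at regions called at every time.

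Each difference between times compares single lists of unknown depth, so neither the spread between the 2 samples nor the part of depth in the short 7 h list can be given. Peaks in repeats depend on how reads with several matches were placed, which was not tested, and a change of peak number can reflect joined or split calls rather than DNA covered.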
